A study of Homo sapiens with 6 samples.

Results

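The transcripts examined here belong to 9 genes that mark or drive the switch between epithelial and mesenchymal cell states. The drivers are the transcription factors SNAI2, SNAI1, TWIST1, ZEB1 and ZEB2. The markers are E-cadherin (CDH1) on the epithelial side and vimentin (VIM), N-cadherin (CDH2) and fibronectin (FN1) on the mesenchymal side. Members were all probe sets whose gene symbol in the array's annotation exactly matched any of these names. This gave 18 of the 22277 probe sets on the array. Within these genes no probe set was picked by its value, but the genes were chosen with earlier results of these data known. Expression was measured on 1-colour Affymetrix arrays in LNCaP, a line of androgen-responsive prostate cancer cells with an epithelial morphology that was derived from a lymph node metastasis and makes prostate-specific membrane antigen (PSMA, product of FOLH1). There were 3 arrays of control LNCaP cells, labelled untreated, and 3 arrays of LNCaP cells labelled PSMA KD, which carry a transduced shRNA against PSMA from a retroviral shRNA-mir platform. Both were grown in RPMI. The labels name no vector for the control cells and do not say whether the knockdown cells were a clone or a pool, nor whether replicates were separate cultures, so p-values measure the spread between arrays, which may be technical.

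Epithelial cells are held together at adherens junctions by E-cadherin, whose cytoplasmic tail binds catenins and through them actin. In an epithelial to mesenchymal transition, zinc finger factors of the SNAIL and ZEB families and the helix-loop-helix factor TWIST1 repress CDH1 and other epithelial genes, many of them through E-box sequences. Cells then often gain N-cadherin, the intermediate filament vimentin and the matrix protein fibronectin, although the members can move separately. In prostate carcinoma, loss of E-cadherin and gain of the mesenchymal members have been studied as marks of invasive growth.

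The values were GCRMA intensities, analysed as log2, and differences are knockdown minus control. A probe set was tested if its intensity was 16 or more (log2 4) in 3 or more of the 6 arrays. It was called where its adjusted p was under 0.05 in limma (Benjamini-Hochberg over all 15852 probe sets tested). The target was lower in the knockdown arrays, with log2 differences from -2.72 to -0.79 over 5 probe sets paired with FOLH1 or its near-identical copy FOLH1B. All 7 luminal prostate markers with a probe set of their own, among them KLK3, KLK2, TMPRSS2, KRT8 and KRT18, passed the filter, and their summed intensity, to which KRT18 gives the most, was 5030 to 5409 in control and 4961 to 5580 in knockdown arrays. Within this list 3 were higher, ACP3 (0.79), KLK2 (0.41) and TMPRSS2 (0.28), and 2 lower, KLK3 (-0.71) and HOXB13 (-0.25). The groups also differed in control signals. All 18 probe sets for hybridisation controls, transcripts that do not come from the cells, were lower in every knockdown array, and the beta-actin signal at the 5′ end relative to the 3′ end differed by -0.82 on the log2 scale (GAPDH by -0.10). Array processing and knockdown therefore cannot be told apart in any difference given here.

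In the knockdown cells SNAI2 was higher, CDH1 was lower on both of its probe sets and VIM was lower. SNAI1, ZEB1, CDH2 and FN1 had a tested probe set and were not called. Of the 18 member probe sets 12 passed the filter, and of these 1 was called higher and 3 lower. That is 4 of 12, where 34.4% of all probe sets tested were called, 16.6% higher and 17.8% lower, so the members were called about as often as the array as a whole. The arrays of the 2 groups did not overlap for the same 4 of 12 member probe sets, against 48.3% of all probe sets tested. SNAI2 was the 1 member called at a change of at least 2-fold, which 2.04% of all probe sets tested reached in either direction and 0.732% reached as a rise.

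**Figure D1:**
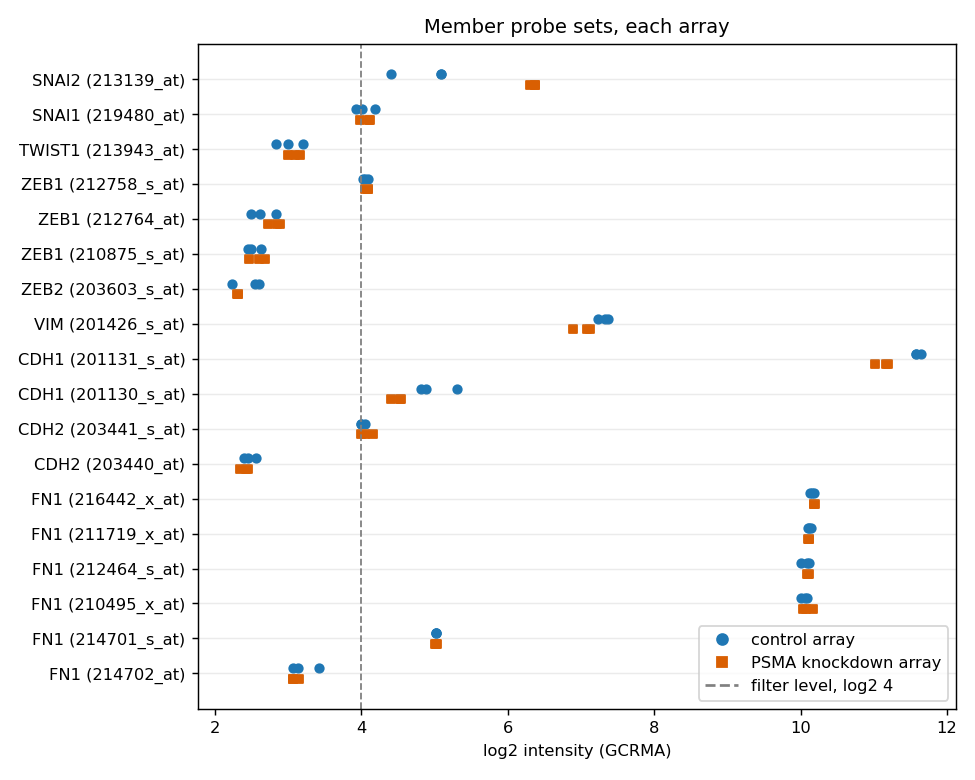
Log2 GCRMA intensity (horizontal axis) of each of the 18 member probe sets in every array, with circles for the 3 control arrays, squares for the 3 PSMA knockdown arrays and a dashed line at the filter level of log2 4. The squares lie to the right of the circles for SNAI2 and to the left for VIM and both CDH1 probe sets, and the symbols overlap for the other 14 probe sets.

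Among the transcription factors, SNAI2, also called SLUG, a zinc finger repressor of CDH1, had 1 probe set (213139_at). It measured 4.40, 5.08 and 5.08 on the log2 scale in the control arrays and 6.37, 6.30 and 6.37 in the knockdown arrays. Every knockdown array lay above every control array, and the knockdown arrays were close together while control array 1 lay below the other control arrays. The mean went from 4.86 ± 0.39 to 6.34 ± 0.04 (SD, n = 3), a log2 difference of 1.49 (SE 0.17, 95% confidence interval 1.08 to 1.89). That is 2.81-fold, with a limma adjusted p of 0.000736. In linear units the control intensities were 21.1, 33.9 and 33.9 and the knockdown intensities 82.4, 78.9 and 82.6. All 6 arrays passed log2 4, so the filter did not select this probe set through its high group. Without any single array the difference ran from 1.26 to 1.60, and it stayed called.

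SNAI1, also called SNAIL, the closest relative of SNAI2 among the members, measured 4.191, 4.003 and 3.922 in control arrays and 4.106, 4.117 and 3.979 in knockdown arrays. The groups overlapped, and both lay at the filter level. Its difference was 0.03 on the log2 scale (95% confidence interval -0.16 to 0.22, limma adjusted p = 0.805), so an increase like that of SNAI2 lies outside the interval at this probe set. A dim probe set can understate a change, which limits how far this interval speaks for the transcript.

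ZEB1, a zinc finger and homeodomain repressor of CDH1, had 3 probe sets, of which 1 (212758_s_at) passed the filter. That probe set measured 4.05, 4.10 and 4.03 in control arrays and 4.06, 4.10 and 4.10 in knockdown arrays, a log2 difference of 0.02 (95% confidence interval -0.09 to 0.14, limma adjusted p = 0.740). The other ZEB1 probe sets lay between 2.45 and 2.89 in all arrays, below the filter, with differences of 0.17 and 0.06. All 3 thus had overlapping groups.

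ZEB2, the relative of ZEB1, was represented by 1 probe set with values of 2.60, 2.55 and 2.24 in control and 2.32, 2.30 and 2.32 in knockdown arrays. TWIST1, the helix-loop-helix member, measured 3.20, 2.83 and 2.99 in control and 3.09, 3.16 and 2.99 in knockdown arrays. Neither reached log2 4 in any array, so neither was tested with the filter. In the fit without a filter their differences were -0.15 for ZEB2 (95% confidence interval -0.38 to 0.08) and 0.07 for TWIST1 (-0.16 to 0.30). These values say that no clear signal was measured at these probe sets in either group, and not that the transcripts were absent.

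**Figure D2:**
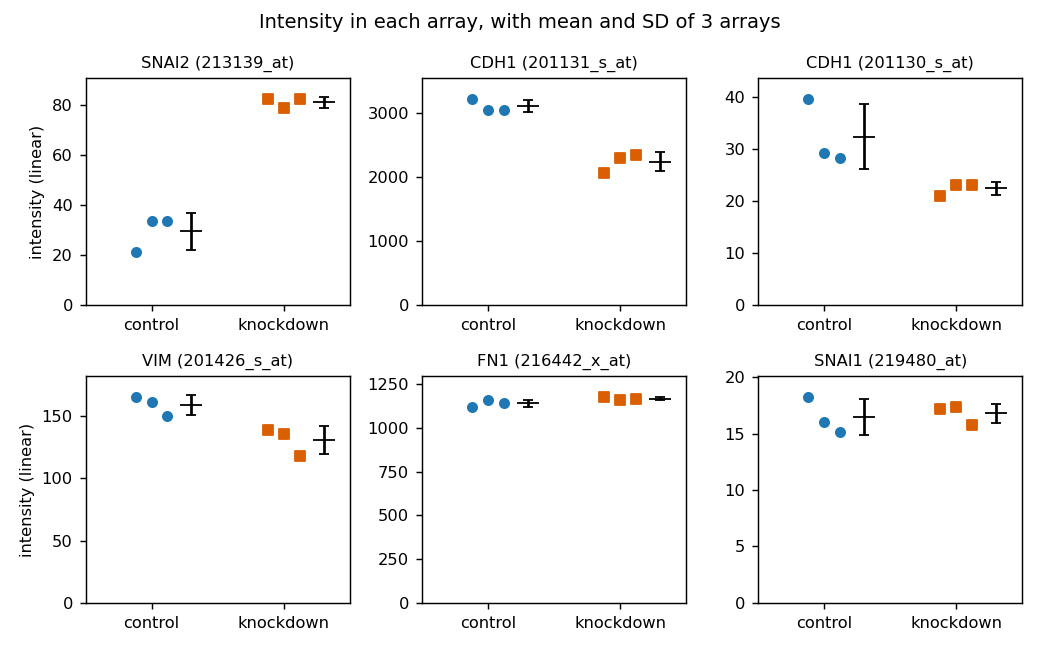
Linear GCRMA intensity (vertical axis, from 0) of 6 member probe sets in each control array (circles) and each knockdown array (squares), with the mean and SD of 3 arrays beside them. SNAI2 stands at 21.1 to 33.9 in control and 78.9 to 82.6 in knockdown arrays, CDH1 and VIM are lower in the knockdown arrays, and FN1 and SNAI1 overlap.

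On the epithelial side, the bright CDH1 probe set (201131_s_at) measured 11.65, 11.57 and 11.57 in control arrays and 11.01, 11.17 and 11.20 in knockdown arrays. Every knockdown array was lower than every control array, with knockdown array 1 the lowest. The mean went from 11.60 ± 0.04 to 11.12 ± 0.10 (SD, n = 3), a log2 difference of -0.47 (SE 0.06, 95% confidence interval -0.62 to -0.32, limma adjusted p = 0.00142). The knockdown level was 72.0% of the control level, with intensities of 3215, 3047 and 3048 against 2068, 2297 and 2344. E-cadherin transcript was thus lower but still gave a strong signal in all knockdown arrays.

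The dim CDH1 probe set (201130_s_at) measured 5.31, 4.88 and 4.82 in control arrays and 4.40, 4.54 and 4.53 in knockdown arrays. Its groups did not overlap, and control array 1 was the highest. The log2 difference of -0.51 (SE 0.13, 95% confidence interval -0.81 to -0.22, limma adjusted p = 0.0176) was close to that of the bright probe set. Without knockdown array 1 its call was lost (adjusted p = 0.0656, difference -0.47), and its difference was -0.36 without control array 1. The bright probe set stayed called without any single array, from -0.51 to -0.42.

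Vimentin, the main intermediate filament of mesenchymal cells, had 1 probe set, at 7.37, 7.33 and 7.23 in control and 7.12, 7.08 and 6.89 in knockdown arrays. Every knockdown array was lower than every control array. The mean went from 7.31 ± 0.07 to 7.03 ± 0.13 (SD, n = 3), a log2 difference of -0.28 (SE 0.08, 95% confidence interval -0.46 to -0.10, limma adjusted p = 0.0254), or 82.2% of the control level. The call was lost without control array 1 (adjusted p = 0.0787, difference -0.25) and without control array 2 (adjusted p = 0.0727, difference -0.27). VIM and CDH1 stand on opposite sides of the switch, and both were lower in the knockdown arrays. The 5′ to 3′ difference between groups was larger in size than these falls for beta-actin (-0.82) and smaller for GAPDH (-0.10), and its part in them was not tested.

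VIM was the 1 called member with a window in the RefSeq promoter table, and its promoter is shown so that the E-boxes through which SNAIL and ZEB factors are known to act can be looked for. The 250 bases before the gene's start, on the plus strand of GRCh38.p14 at chr10:17227991-17228240, are in lower case, with capitals reserved for a match to CAGGTG or its reverse complement CACCTG.
VIM promoter: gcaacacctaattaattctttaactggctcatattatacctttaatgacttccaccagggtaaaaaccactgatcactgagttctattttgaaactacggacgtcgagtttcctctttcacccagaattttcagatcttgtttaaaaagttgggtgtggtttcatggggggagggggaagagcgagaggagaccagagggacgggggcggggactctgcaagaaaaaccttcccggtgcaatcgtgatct
The window holds no capitals, that is no match to either hexamer, and no match to the general E-box CANNTG. Of 35116 RefSeq promoter windows of this length, 17.5% held CAGGTG or CACCTG at least once and 61.8% held CANNTG, which includes them. The table also held windows for ZEB1, ZEB2, CDH2 and FN1. ZEB1 had 7 windows at different starts. The first held 1 such hexamer, beginning at position -57 relative to its start, the third held 2, at -242 and -85, and the other 5 held none. At least 2 were held by 2.5% of all windows, a share per single window that does not apply to a gene with 7 of them. The windows of ZEB2, FN1 and CDH2 held none. A match is a run of letters and not a bound site.

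N-cadherin, the mesenchymal counterpart of E-cadherin, had 2 probe sets. The one that passed the filter (203441_s_at) did so with 3 arrays, and measured 3.99, 3.99 and 4.06 in control and 3.99, 4.16 and 4.06 in knockdown arrays. The difference was 0.06 on the log2 scale (95% confidence interval -0.08 to 0.20, limma adjusted p = 0.505). The other probe set lay between 2.35 and 2.55 in all arrays, below the filter, with a difference of -0.06. Neither probe set showed groups that were apart, so a gain of CDH2 beside the lower CDH1 was not detected.

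Fibronectin, a secreted glycoprotein that integrins assemble into fibrils, had the most probe sets of any member, 6, of which 5 passed the filter. The bright ones (4 probe sets, 216442_x_at, 211719_x_at, 212464_s_at and 210495_x_at) had group means between 10.05 and 10.19 on the log2 scale. The first of these measured 10.13, 10.18 and 10.16 in control and 10.20, 10.18 and 10.18 in knockdown arrays, a log2 difference of 0.03 (95% confidence interval -0.08 to 0.14). The differences of the other bright ones were -0.01, 0.03 and 0.04, and their groups overlapped as well. FN1 signal was thus well above the filter level, and the widest of these 4 intervals reached a 1.13-fold change. Some intensities of 216442_x_at, 211719_x_at and 212464_s_at recurred exactly between arrays, so their intervals may be too narrow, which was not tested. The fifth tested probe set (214701_s_at) stood at 5.03 in all 3 control arrays and at 5.03, 5.03 and 5.01 in knockdown arrays, and the sixth lay below the filter with a difference of -0.11. Probe sets of one gene can match the same transcripts, so these are not independent readings.

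**Figure D3:**
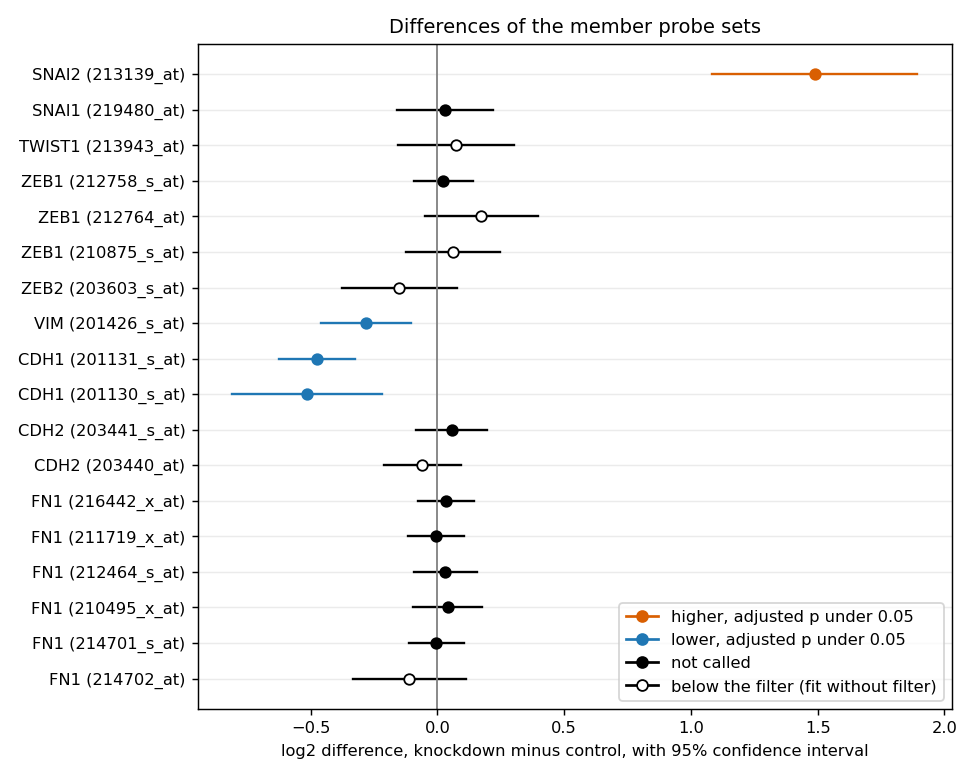
Log2 difference, knockdown minus control, with its 95% confidence interval (horizontal axis) for each member probe set, coloured where called, with open circles for the 6 probe sets below the filter (fit without a filter). SNAI2 stands apart at 1.49, the CDH1 and VIM intervals lie below 0, and every other interval spans 0.

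The 8 tested member probe sets that were not called all had an unadjusted p of at least 0.383 in limma, so none was near the threshold. Their 95% intervals allowed changes of at most 1.16-fold in either direction, and those of the 6 probe sets below the filter, in the fit without it, at most 1.32-fold. These intervals hold for the probe set signal as deposited, and a miss of the threshold does not show that the transcripts were alike. Some intensities recurred exactly: 7 of the 12 member probe sets tested, as did 24.4% of all probe sets tested, had the same value in at least 2 arrays. For SNAI2 these were control arrays 2 and 3, and for 214701_s_at of FN1 all 3 control arrays, whose SD was 0. The bright FN1 probe sets 216442_x_at, 211719_x_at and 212464_s_at were also among them. Spreads of such probe sets may be too small, which was not tested.

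**Figure D4:**
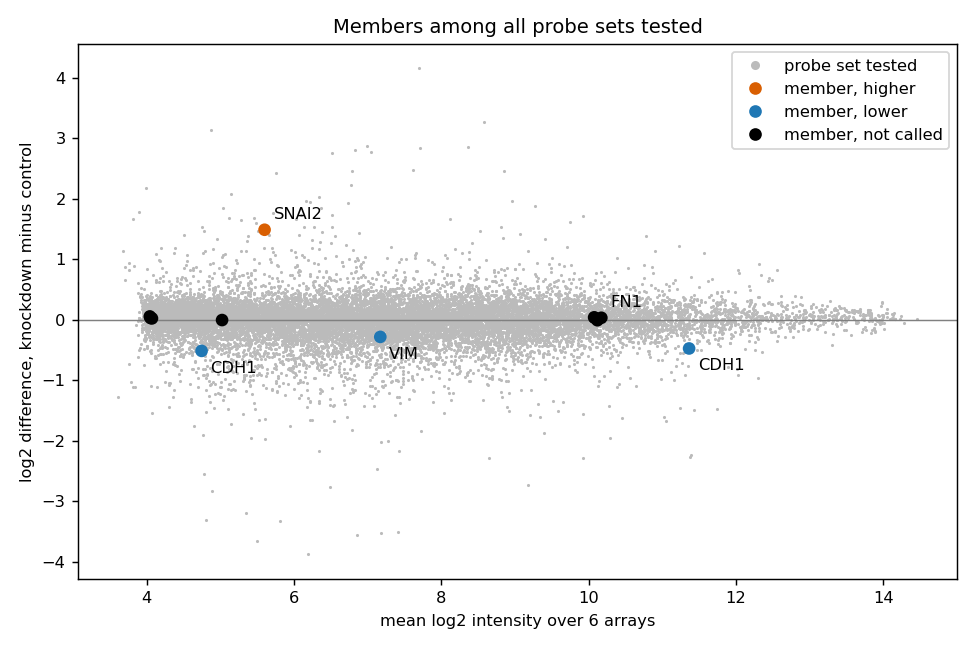
Log2 difference, knockdown minus control (vertical axis), against the mean log2 intensity over 6 arrays (horizontal axis) for all 15852 probe sets tested (grey) and the 12 member probe sets tested (coloured where called, black otherwise). SNAI2 at 1.49 lies above most probe sets of its intensity, while CDH1 and VIM lie within or at the edge of the grey band and FN1 lies at its middle.

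The genes whose pattern over the 6 arrays was most like that of SNAI2, by Pearson's r on the log2 values, were TNNT3 (r = 0.9995), SOX15 (0.998), LIN7B (0.997), SMS (0.997) and ASXL1 (0.996). TNNT3 encodes a skeletal muscle troponin T, SMS spermine synthase and ASXL1 a chromatin regulator. Their log2 differences were 0.33, 0.12, 0.71, 0.37 and 0.26, all smaller than that of SNAI2, and SOX15 was not called (limma adjusted p = 0.0982). With 6 arrays in 2 groups such an r mostly reflects the group difference, and 474 of 9239 genes exceeded 0.95.

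The neighbours of these members were read from 10 gene lists on the same fit, with the brightest tested probe set for each gene. Of 146 listed genes 97 were tested, of which 20 were higher and 14 lower in knockdown arrays. Among all 9241 genes with a tested probe set 18.7% were higher and 16.1% lower. The median log2 difference was 0.03 both for the 97 and for all 9241 genes.

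Among other transcription factors tied to the transition, 4 of 7 tested were higher and 1 lower, with a median of 0.30. The higher ones included ID3 (0.86), ID2 (0.60) and ID1 (0.48), inhibitors that bind helix-loop-helix factors and keep them off DNA. The remaining calls, named after their values were seen, were SOX4 (0.30) and SOX9 (-0.42). Without _x_at and _s_at probe sets, which include the brightest ones of the ID genes and SOX9, 1 of the list was higher and 0 lower. TCF3 (0.03), also named after its values were seen, was not called. It had 10 other probe sets, from -0.14 to 0.26, of which 1 was called. The groups overlapped in none of the 3 ID genes: ID3, for example, went from 9.06 ± 0.02 to 9.92 ± 0.13 (SD, n = 3).

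Of the corepressors of SNAIL and ZEB factors and the ligases and kinases that set their turnover, 1 of 11 tested was higher, the phosphatase CTDSP1 (0.28), and the others were not called on their brightest probe set. CTBP2 (0.05) had 4 other probe sets, from -0.28 to 0.10, of which 2 were called, and the other probe set of FBXL5 was called at 0.16. Both were named after their values were seen. The count of higher genes was 2 without knockdown array 3 and 3 with median centring of the arrays. At an unadjusted p under 0.05 in limma the list had 3 higher and 0 lower. EZH2 (-0.01), HDAC1 (-0.09), HDAC2 (-0.04) and GSK3B (-0.02), named after their values were seen, all had differences under 0.1 in size.

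Regulators of the epithelial state were split, with 3 of 9 tested higher and 3 lower. The ETS factor EHF was lower by the most, from 7.39 ± 0.12 to 5.99 ± 0.08 (SD, n = 3, log2 difference -1.40, SE 0.08). KLF4 was higher (0.63), and the ETS factor ELF3 was lower (-0.39, and -0.59 on its other probe set). The other calls, named after their values were seen, were GRHL2 (0.34) and OVOL2 (0.28), both higher, and the splicing regulator ESRP1 (-0.23). GRHL2 and OVOL2 are known as opponents of ZEB1.

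Among E-cadherin's partners 1 of 10 tested was called, the alpha-catenin relative CTNNAL1 (-0.21), and that call was lost with median centring of the arrays and when any array other than knockdown array 3 was left out. Without knockdown array 1 or 3, 1 of the list was called higher. The same count of 1 came with a mean of at least log2 6, quantile normalization or median centring. With a trended and robust variance model, or with array weights, 2 were called higher. At an unadjusted p under 0.05 in limma 2 were higher and 1 lower. The catenins CTNNA1 (0.16), CTNNB1 (0.13) and JUP (-0.05), which link E-cadherin to the cytoskeleton and were named after their values were seen, were not called, so the lower CDH1 signal was not matched by called falls in these partners.

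Other cadherins had 2 of 5 tested lower, CDH18 (-0.56) and P-cadherin, CDH3 (-0.47). CDH3 went from 5.34 ± 0.15 to 4.87 ± 0.16 (SD, n = 3), at a dim probe set. At an unadjusted p under 0.05 in limma the same list had 0 higher and 2 lower. In the fit without a filter 1 of the list was called higher and 2 lower.

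Epithelial junction and polarity genes moved both ways, with 6 of 19 tested higher (3 without control array 1) and 3 lower. The falls were in OCLN (-0.99) and, named after their values were seen, CLDN4 (-0.48) and CLDN7 (-0.21), which encode tight junction proteins. So do CLDN3 (0.05, and -0.25 on its other probe set) and TJP3 (-0.15, and -0.18 on its other probe set). Both were also named after their values were seen, and none of their tested probe sets was called. The desmosomal cadherin DSC2, also named after its values were seen, is counted among the rises (0.28) on its brightest probe set, but its other probe set was called lower, at -1.005. PKP2, likewise named after its values were seen, is counted among the rises too, from 3.92 ± 0.05 to 4.21 ± 0.13 (SD, n = 3). It passed the filter only through the knockdown arrays, where it was high, so this call carries little weight. Its other probe set was not called (0.06). With low values raised to log2 4, 5 of the list were higher. OCLN, which encodes occludin, went from 7.33 ± 0.16 to 6.34 ± 0.04 (SD, n = 3). The rises included CD24 (0.57, with 0.30 to 0.55 on 5 other probe sets) and DSP (0.49), the desmosomal plaque protein. TJP1, whose protein lies under tight junctions, had a difference of 0.07 and was not called, like EPCAM (-0.20); both were named after their values were seen.

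The keratins of simple epithelium had 1 rise in 4 tested, KRT19, from 5.20 ± 0.28 to 6.87 ± 0.14 (SD, n = 3, log2 difference 1.67). KRT8 (-0.05) and KRT18 (0.00), the main keratin pair of luminal cells, were not called. At an unadjusted p under 0.05 in limma the list had 1 higher and 0 lower.

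Mesenchymal and matrix genes had 2 rises and 1 fall in 11 tested. The collagen COL3A1 rose by 1.01 (0.48 on its other probe set) and the smooth muscle actin ACTA2 by 0.95. The actin-binding protein CALD1 was lower by -0.35 on its brightest probe set and by -0.50 to -1.83 on 6 others, all called. Beside this, the fibroblast and smooth muscle markers, of which 6 of 8 passed the filter and which include COL3A1 and ACTA2, had a summed intensity of 301 to 319 in control and 432 to 433 in knockdown arrays. In that list COL1A2 and LUM lay below the filter, and COL1A1 (0.02), DCN (0.11) and PDGFRB (0.13) were not called on their brightest probe set. COL1A1 had 2 other tested probe sets, 1 called lower at -0.26 and the other at 0.01 and not called. The part of other cells in the COL3A1 and ACTA2 rises was not tested. Fewer cells of a type and less RNA per cell cannot be told apart in such bulk samples.

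Markers of vimentin-rich prostate lines, of which 4 of 7 passed the filter, summed to 119 to 133 in control and 114 to 123 in knockdown arrays. CAV1, CAV2 and CD44 lay below the filter in both, ANXA1 fell by 1.16 and S100A2 rose by 0.40. The leukocyte list summed to 485 to 520 in control and 248 to 251 in knockdown arrays, through LCP1 (-1.21), a gene that epithelial cancer cells also express, while PTPRC and CD14 lay below the filter. Endothelial markers summed to 85.9 to 87.6 and 87.9 to 92.0, and basal prostate markers to 114 to 124 and 108 to 115. The part of such cells in the VIM and CDH1 differences was not tested.

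Fibronectin's receptors and fibril assembly genes had 1 rise and 1 fall in 10 tested, the focal adhesion adaptor PXN (0.29) and the heparan sulphate proteoglycan SDC4 (-0.73). ITGA5 (-0.08) and ITGB1 (-0.04), the subunits of the classical fibronectin receptor, were named after their values were seen and were not called, like FN1 itself.

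Genes of the TGF-beta signal, a known inducer of SNAI1 and SNAI2, had 2 rises and 2 falls in 11 tested. The pseudoreceptor BAMBI was lower by the most (-2.28), the inhibitory SMAD7 was higher (0.43) and LTBP1, which binds latent TGF-beta, was higher (0.45, but -0.10 on its other probe set). The fourth call, named after its value was seen, was SMAD4 (-0.33). Without control array 1, knockdown array 2 or knockdown array 3, 1 of the rises was called. The receptors TGFBR1 and TGFBR2 and the ligand TGFB2 lay below the filter.

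**Figure D5:**
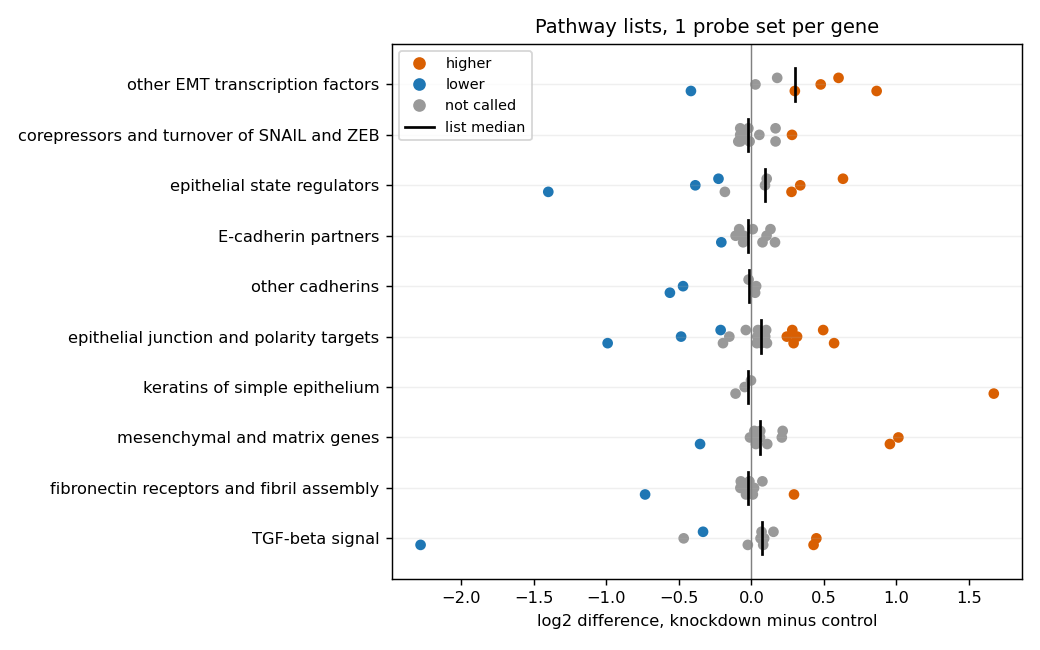
Log2 difference, knockdown minus control (horizontal axis), for the tested genes of each of 10 lists, 1 point per gene, coloured where called higher or lower and grey otherwise, with a black bar at the list median. Medians lie between -0.02 and 0.30, and single genes such as KRT19 (1.67), EHF (-1.40) and BAMBI (-2.28) stand apart from their lists.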

How the data were processed

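Intensities per probe set were deposited by the authors on a linear scale after GCRMA, per the submitters' processing notes, and its version is not given in the sources used here. That the scale is linear was judged from their range. Probe sets were paired with gene symbols through the platform annotation (19064 with 1 symbol, 1043 with several, 2108 with none), and 62 control probe sets were left out of the tests. Values were log2-transformed and fitted per probe set with limma 3.58.1 (lmFit and eBayes, R 4.3.3) over 15852 probe sets that reached log2 4 in at least 3 of 6 arrays, 3 per group. The number of arrays limits the precision. A list gene was represented by its brightest tested probe set. Up to 3 called genes with the largest difference per list were named by rule, or 2 where none was called, and others are marked. The members and lists were chosen with earlier results of these data known. The fit was tested on simulated data. Alternatives changed the filter, low values, scaling, variance model, array weights, unit tested and arrays, and added the replicate number as a block. Promoter windows are RefSeq's, GRCh38.p14.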

Additional observations from a re-analysis of the deposited data

Results flagged for a closer look

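A control probe set for ribosomal RNA, outside all tests, had a mean log2 intensity that was 0.53 higher in the knockdown arrays, and its lowest knockdown value lay above its highest control value.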

How the results depend on the processing

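SNAI2 and the bright CDH1 probe set stayed called under every alternative in which they were tested, 16 each, SNAI2 from 1.26 to 1.60 and CDH1 from -0.51 to -0.42. SNAI2 was not tested where the mean over all arrays had to reach log2 6, which left 0 member probe sets higher in limma, because its own mean lies lower. Without _x_at and _s_at probe sets 0 members were lower, since CDH1 and VIM have no other kind, and over the array 1311 probe sets were higher and 1155 lower as fewer were tested. With 1 probe set per gene 1526 were lower, and with the mean of a gene's probe sets 1611 were higher and 1671 lower. Leaving out single arrays gave 1824 to 2399 higher and 2157 to 2443 lower over the array, and 1 higher and 2 to 3 lower among members. Differences of SNAI1, ZEB1 and FN1 near 0 changed sign under some alternatives and were called under none. Of 340 counts for the gene lists under alternatives, 303 stayed within 1.5 times. Deviations from the group mean correlated at 0.11, -0.02 and 0.12 between same-numbered arrays, and at -0.14 to 0.04 between other pairs across groups. With the replicate number as a block the counts were 2521 higher and 2775 lower, with the same 1 higher and 3 lower members. Low signal at SNAI1, ZEB1, ZEB2, TWIST1 and CDH2 limits what these arrays can show for them, and the control signal of SNAI2 was also low.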
